A study of Mus musculus with 8 samples.

Results

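The cytosolic ribosomal protein genes encode the proteins of the small and large subunits of the ribosome that translates nuclear mRNAs. They were taken from the deposited gene table as the genes whose symbol starts with Rpl or Rps and a digit, together with Rplp0, Rplp1 and Rplp2. Symbols that contain "-ps" (177 rows) and the ribosomal S6 kinases (10 rows) were dropped, and a mean of at least 10 normalised reads over the 8 libraries was required. Of the 90 genes left, 87 met that minimum, out of 23008 mouse genes in the table. By role they comprised 75 core ribosomal proteins (30 of the small subunit, 42 of the large subunit and 3 of the stalk), 5 paralogues, 6 near-copies such as Rps3a2, and Rps19bp1, which binds a ribosomal protein and is not one itself. Just inside the minimum was Rps10 at 13.5 normalised reads. Just outside were Rpl24 at 7.35, Rpl36al at 4.59 and Rpl39l at 1.66.

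The tissue was gastrocnemius, a fast calf muscle, of wild-type C57BL/6J mice without disease. Every mouse had been given, through the tail vein, AAV9 virus that carried the GNDM activator construct, so the controls carry virus and activator too. The groups differ in the guide RNA: 4 libraries received m31, directed at the laminin gene Lama1, and 4 a non-targeting guide. Animals were 7 weeks old at injection by the treatment note and 7 to 12 weeks by the series text, and the muscle was collected 11 weeks later.

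Between 25157486 and 39210248 reads fell in genes per library, 11.9 to 15.03% of them in mitochondrial genes. Lama1 checked the labels: it had 209, 295, 273 and 86.5 normalised reads in the m31 libraries and 4.18, 0, 2.25 and 0 in the controls. It was the one gene of 15960 tested that passed the adjusted threshold. Muscle fibre markers were abundant in every library, with a summed level of 4414795 to 5867569 over 10 genes. The libraries m31 replicate 4 and control replicate 3 stood apart in macrophage markers, 12 genes that summed to 11361 and 7904 there, against 3299 to 5707 in the other libraries. The 11 markers of fibroblasts and their progenitors summed to 228555 in m31 replicate 4, while control replicate 3, at 97000, lay within the 62501 to 110245 of the others. The activator GNDM lay at opposite ends in m31 replicate 4 and control replicate 3. It was lowest of all in the former, at 6157 normalised reads, and highest in the latter, at 37989, with the others at 9802 to 24487. None of these markers was at 0 in all libraries. The labels do not state that each library came from its own animal, and p-values then speak only of the spread among the libraries, which could be technical.

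Ribosomal proteins are made in near-equal amounts, because each core protein enters a ribosome once, apart from the stalk dimers. Their mRNAs typically begin with a C followed by a run of pyrimidines, the terminal oligopyrimidine tract, through which the mTOR pathway and the binding protein Larp1 control their translation. Mature ribosomes live long, and in muscle their number follows growth and load. Skeletal muscle and heart also make Rpl3l, a paralogue that takes the place of Rpl3 beside the peptidyl transferase centre.

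Start-site windows are printed for members whose annotated start opens with such a tract, and for a pair of paralogues that do not. Rps18 and Rpl38 are shown because their groups did not overlap, Rps6 because it is the target of the S6 kinases, Rplp2 for the stalk, and Rps27 as the partner of Rps27l. The sequences are RefSeq's on build GRCm38.p6, from 40 bases before the start to base 20 of the transcript, on the gene's own strand, and the 8 capitals are the first bases of the transcript.
Rps18 (chr17:33955646-33955705, minus strand): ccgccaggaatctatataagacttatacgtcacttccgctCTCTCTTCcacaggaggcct
Rpl38 (chr11:114668540-114668599, plus strand): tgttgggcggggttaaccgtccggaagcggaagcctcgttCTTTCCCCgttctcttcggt
Rps6 (chr4:86857348-86857407, minus strand): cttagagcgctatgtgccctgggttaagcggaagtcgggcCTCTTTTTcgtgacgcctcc
Rplp2 (chr7:141447611-141447670, plus strand): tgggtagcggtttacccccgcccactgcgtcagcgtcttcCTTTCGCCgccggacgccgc
Rps27 (chr3:90213629-90213688, minus strand): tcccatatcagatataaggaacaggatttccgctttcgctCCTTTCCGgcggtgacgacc
Rps27l (chr9:66946046-66946105, plus strand): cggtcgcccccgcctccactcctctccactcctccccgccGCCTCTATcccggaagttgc
Rpl3l (chr17:24727786-24727845, plus strand): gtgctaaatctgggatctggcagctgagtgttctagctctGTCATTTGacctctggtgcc

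RefSeq promoter windows matched 63 of the 87 members by symbol. A C exactly at the annotated start, followed by 4 or more pyrimidines (C or T) on the gene's strand, was found for 15 of these 63 (23.8%) and for 813 of all 27025 genes with a window (3.01%). With the start allowed to lie within 10 bases of the annotated one, the shares were 61.9% and 34.4%. None of the 4 paralogues with a window had the tract exactly at its start, and 3 of them had one within 10 bases. The letters CCGGAAG, bound by ETS factors, were sought on either strand from 250 bases before to 50 bases after the start. They stood in a window of 38.1% of the 63 members, against 9.93% of all genes with a window. AAGATGGC, bound by YY1 and able to overlap the former by its first letters, did so for 9.52% of these members against 3.19% of all genes. These are matches of letters and do not show binding. Of the 8 members whose groups did not overlap, 7 had a window, and 2 of these had the tract at the start.

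Most core genes lay at like levels once divided by coding length. The median over the 74 core genes other than Rpl3 was 9082 normalised reads per kb of coding sequence, with quartiles of 7481 and 11129, and 64 of the 74 lay within 2-fold of the median. The highest levels per kb were those of Rpl41 (40011), whose coding sequence has only 78 bases, the stalk protein Rplp1 (25677), the small subunit protein Rps2 (19287) and the stalk base Rplp0 (17477). The lowest were Rps10 (27.1), Rpl13a (89.4), the copy Rps27rt (269) and Rps19bp1 (442). Levels per coding length leave out the untranslated parts, which weighs on a gene as short as Rpl41.

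**Figure D1:**
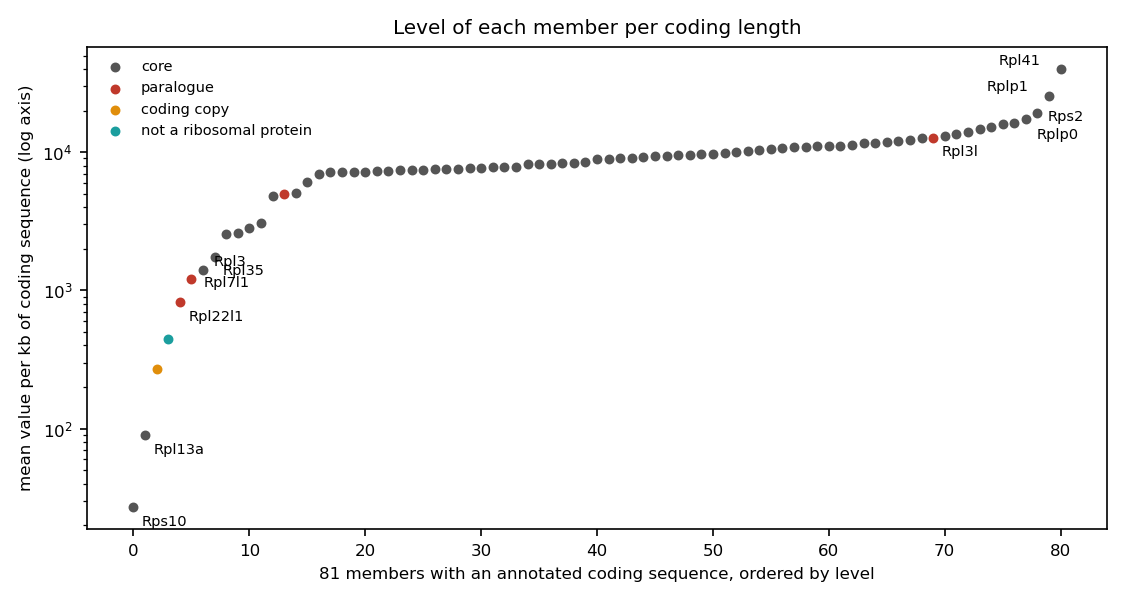
Mean value over the 8 libraries per kb of coding sequence (log axis) for the 81 members with an annotated coding sequence, ordered by level and coloured by class. Most core genes form a shelf near 9082, Rpl3l lies on it, and Rpl3, Rpl13a and Rps10 lie below it.

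The low core genes were mostly genes whose exons overlap another annotated gene. The strand setting of the counting is not given in the sources used here, so reads over such exons cannot be assigned with certainty. Counting Rpl3, 8 core genes lay below 0.5 times the median, and 6 of them shared more than 20% of their exon bases with another gene, against 4 of the other 67. Among them were Rps10, Rpl13a, Rpl35, Rpl23a and Rpl30, of which Rpl23a and Rpl30 are named here after their values were seen. Rpl35, for example, shared 66.2% of its exon bases with Arpc5l and Wdr38. Rpl3 (2.93% shared) and Rpl19 (11.4%) were low without such overlap.

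**Figure D2:**
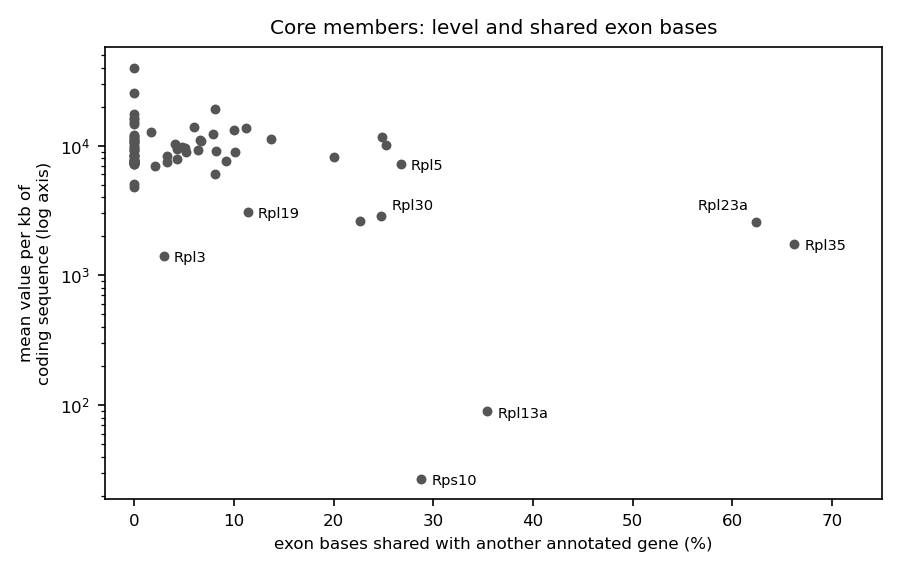
Mean value per kb of coding sequence (log axis) of the core genes against the percentage of exon bases that another annotated gene shares. Rps10, Rpl13a, Rpl35, Rpl23a and Rpl30 are among the genes that are low and share over 20%; Rpl3 is low with 2.93%.

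Processed copies are another place where reads can go. The 177 rows with "-ps" symbols, 131 of which reached a mean of 10, held 5.24% of the summed level of members and copies together. The fullest were Rpl15-ps3 (1693 normalised reads), Rps6-ps4 (1679) and Rps2-ps10 (1368). For Rps10 the pair of copy rows held 292 normalised reads, against 13.5 for the gene itself. Rpl24, which missed the minimum, shared 47.0% of its exon bases with Gm28037. The levels of Rps10, Rpl13a, Rpl24 and the near-copies are taken as uncertain. The part of shared exons and of copies in the low levels was not tested. Among the members, 6 are annotated as processed pseudogenes (Rps3a2, Rps3a3, Rps4l, Rpl37rt, Rpl6l and Rpl32l).

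No cytosolic ribosomal protein gene differed between m31 and control muscle at the adjusted threshold of 0.05 in limma's test on log2(value + 1). Of the 87 members 0 passed, beside 0.00627% of all 15960 genes tested, and the smallest adjusted p among them was 0.669, for Rpl27. edgeR's and DESeq2's tests on the recovered reads also called 0 members. The estimates were small and mostly on one side: 77 of 87 were below 0, beside 48.7% of all genes, and their median was -0.09 on the log2 scale, beside 0.01 for all genes. The median stayed below 0 under quantile normalisation, recentring on library medians, edgeR's TMM scaling and scaling to nuclear reads, from -0.13 to -0.05. Abundant genes as a whole leaned the same way to a lesser extent: of 3475 tested genes with a mean of at least 1000, 58.1% were below 0, with a median of -0.02. The genes of one family rise and fall together between libraries, so these counts are no test.

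Some lists of cell markers leaned with the groups too, and 0 markers of any list passed the adjusted threshold in limma's test. All 12 macrophage estimates were above 0, with sums of 4638 to 11361 in the m31 libraries and 3299 to 7904 in the controls. So were all 11 for fibroblasts and their progenitors (75603 to 228555 against 62501 to 97000) and all 8 for tendon (12865 to 31774 against 7926 to 16058). All 7 Schwann cell estimates were below 0 (5277 to 7832 against 5700 to 10517), as were all 5 of erythroid cells (8721 to 16064 against 8348 to 32843) and all 10 of muscle fibres (4622543 to 5303019 against 4414795 to 5867569). The other lists were mixed. Estimates above 0 were 7 of 9 for endothelial cells, 6 of 8 for pericytes and smooth muscle and 2 of 3 for lymphocytes. For adipocytes they were 6 of 7, though with sums of 55891 to 63940 against 62206 to 72627, and for satellite cells 5 of 6. Leaving out m31 replicate 4 and control replicate 3, the libraries with the highest macrophage sums, was chosen after the data were seen. It is no test of these sums, and 17.1% of all genes then had separate groups. Without both, the macrophage sums were 4638 to 5707 with m31 and 3299 to 3807 in the controls. The muscle fibre sums were 4622543 to 5303019 and 5349654 to 5867569, so neither overlapped. The fibroblast sums, 75603 to 110245 and 62501 to 75869, and the tendon sums, 12865 to 21718 and 7926 to 13921, still did. The part of these cells in the members' lean was not tested.

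At an unadjusted p under 0.05, limma put 5 members lower with m31 and 0 higher, beside 3.03% and 3.76% of all genes (6.79% in either direction). Every m31 library lay below every control library for 8 members, and above for 0, beside 2.02% and 1.84% of all genes (3.85% in either direction). For 84 of the 87 members the 95% interval of the difference lay within 1.5-fold in either direction, and for 58 within 1.25-fold. The exceptions at 1.5-fold were Rps10 (mean 13.5), Rps4l (129) and Rpl37rt (193), all low or copy-like genes. The median SD within groups was 0.12 on the log2 scale for the members and 0.21 for all genes tested, most of which are less abundant. Among genes with a mean of at least 1000 it was 0.12 for the members and 0.14 for all.

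**Figure D3:**
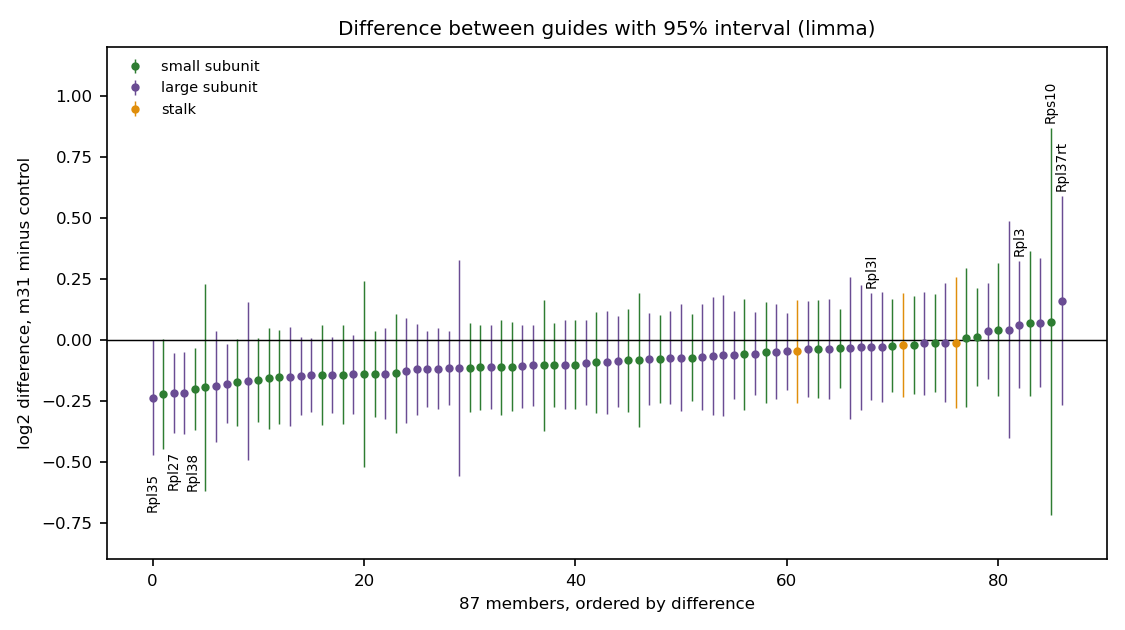
Log2 difference, m31 minus control, of the 87 members with limma's 95% interval, ordered by size and coloured by subunit. Points run from -0.24 for Rpl35 to 0.16 for Rpl37rt, with 77 below 0.

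Of the 8 members with separate groups, 7 were core genes of the large subunit and 1 of the small subunit. Among all genes, 2.02% had separate groups lower with m31. Over the core genes of each subunit the median difference was -0.09, and per nuclear reads 0 members had separate groups. Rpl27, a large subunit protein, had 3066, 3414, 3034 and 3079 normalised reads with m31 and 3854, 3563, 3485 and 3755 with the control guide. All m31 libraries were below all control libraries, with m31 replicate 2 the nearest to them. The means were 3148 ± 178 and 3664 ± 170 (SD, n = 4 each) and the log2 difference was -0.22 ± 0.07 (SE), with limma's adjusted p = 0.669.

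Rpl38, which in mouse is needed for translating a set of Hox mRNAs, had 1403, 1505, 1376 and 1397 with m31 and 1704, 1528, 1639 and 1747 with the control guide. The groups did not overlap, but m31 replicate 2 and control replicate 2 lay close to each other. The log2 difference was -0.22 ± 0.08 (SE), with limma's adjusted p = 0.685. Rpl29, a large subunit protein, had 5190, 5731, 5234 and 4989 with m31 and 5835, 5937, 5804 and 6365 with the control guide. Its groups also stood apart by a narrow gap, with m31 replicate 2 again the highest of its group, and the difference was -0.18 ± 0.07 (SE; limma's adjusted p = 0.720).

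Rpl35, which lies near the exit of the nascent chain, had 594, 626, 574 and 597 with m31 and 773, 642, 610 and 816 with the control guide. Control replicate 3 lay below m31 replicate 2, so the groups overlapped, and control replicates 1 and 4 were the high ones. The difference of -0.24 ± 0.11 (SE) was the lowest estimate of all members (limma's adjusted p = 0.733), on a gene that shares most of its exon bases with its neighbours.

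The pair that escorts the small rRNA of the large subunit, and that binds Mdm2 when ribosome assembly fails, is Rpl5 and Rpl11. Rpl5 had 5921, 6377, 5886 and 6246 with m31 and 7120, 6460, 6598 and 6819 with the control guide, a difference of -0.14 ± 0.07 (SE; limma's adjusted p = 0.757). The groups did not overlap, and 26.7% of its exon bases lie in other annotated genes. Rpl11 had 3724, 3825, 3565 and 3816 against 4350, 3803, 3626 and 4197, and there the groups overlapped. Rpl26, another Mdm2-linked protein, had 4287 ± 167 against 4743 ± 157 (SD, n = 4 each; difference -0.15), and Rpl19 had 1751 ± 34.0 against 1899 ± 79.6 (difference -0.12). Both had separate groups and were among the 3 members with the narrowest spread, with Rpl5. Rpl23, named here after its values were seen, was the other member with separate groups, at a difference of -0.15.

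Over the 42 core genes of the large subunit the median difference was -0.09, with 38 estimates below 0, beside 48.7% of all genes. Separate groups were found for 7, all lower with m31, beside 2.02% of all genes. Above 0 lay Rpl37 (2731 ± 128 against 2635 ± 479, difference 0.07), Rpl3 and Rpl14 (4752 ± 320 against 4647 ± 447, difference 0.04). Rpl13a, low and uncertain as given above, was the other one, at 0.04. In Rpl37 the control libraries spanned 2132 to 3078 and enclosed every m31 value.

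Over the 30 core genes of the small subunit the median was also -0.09, with 25 estimates below 0, beside 48.7% of all genes. There, 1 gene had separate groups, lower with m31, beside 2.02% of all genes. That gene was Rps18, a protein of the head of the small subunit, with 4003, 4191, 3922 and 3764 normalised reads with m31 and 4681, 4295, 4362 and 4972 with the control guide. The gap between m31 replicate 2 and control replicate 2 was small beside the range of the controls. The difference was -0.20 ± 0.08 (SE), with limma's adjusted p = 0.705.

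Rps6, the phosphorylated target of the S6 kinases, had 5580, 5894, 5818 and 5796 with m31 and 6190, 6021, 5380 and 6108 with the control guide, a difference of -0.04 ± 0.07 (SE). Control replicate 3 was the lowest of all libraries and the other controls were the highest. Rps19, the gene most often mutated in Diamond-Blackfan anaemia in people, had 2181 ± 112 against 2224 ± 244 (SD, n = 4 each), a difference of -0.02. Rps27a, made as a fusion with ubiquitin, had 2693 ± 117 against 3022 ± 366, a difference of -0.16 ± 0.09 (SE), again with overlapping groups. Above 0 lay Rps20 (4648 ± 364 against 4499 ± 892, difference 0.07) and Rps28 (2037 ± 127 against 2003 ± 361, difference 0.04), among others. Of the 11 Diamond-Blackfan genes tested 0 passed and 9 estimates were below 0, and of the 4 members on the X chromosome 0 passed and 4 were below 0.

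None of the 3 genes of the stalk, which recruits and activates translation factors, passed the test. Rplp0 had 16357, 17078, 16477 and 15515 with m31 and 18639, 18200, 14256 and 16863 with the control guide, a difference of -0.05 ± 0.10 (SE). Rplp1 had 8774 ± 535 against 8943 ± 1566 (SD, n = 4 each; difference -0.01) and Rplp2 3803 ± 191 against 3885 ± 476 (difference -0.02). In each of the 3, control replicate 1 was the highest library and control replicate 3 the lowest, so the controls enclosed the m31 group. The limma intervals of Rplp0, -0.26 to 0.16, Rplp1, -0.28 to 0.26, and Rplp2, -0.24 to 0.19, cover small changes in either direction. The sign of Rplp1 turned under quantile normalisation, and those of Rplp1 and Rplp2 turned per nuclear reads.

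Rpl3l was the paralogue that dominated its pair. It had 16150, 15991, 15581 and 13862 normalised reads with m31 and 16549, 16985, 13195 and 16295 with the control guide. Control replicate 3 and m31 replicate 4 were the lowest, and the groups overlapped. The means were 15396 ± 1050 and 15756 ± 1731 (SD, n = 4 each), a difference of -0.03 ± 0.10 (SE; limma's adjusted p = 0.971), and an exact permutation test, two-sided, returned p = 0.600. The sign turned to 0.01 under quantile normalisation and per nuclear reads.

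Rpl3 itself, the general form, had 1565, 1610, 1609 and 2209 with m31 and 1680, 1541, 1855 and 1575 with the control guide. The same libraries that were lowest for Rpl3l, m31 replicate 4 and control replicate 3, were the highest for Rpl3. The means were 1748 ± 308 and 1663 ± 141 (SD, n = 4 each), a difference of 0.06 ± 0.12 (SE; limma's adjusted p = 0.943, exact two-sided permutation p = 0.771). Without m31 replicate 4 the difference was -0.06, and without both libraries it was -0.002.

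Per coding length, Rpl3l made up 91.1, 90.8, 90.6 and 86.1% of the pair with m31 and 90.7, 91.6, 87.6 and 91.1% with the control guide. The means were 89.6 ± 2.34 and 90.2 ± 1.83% (SD, n = 4 each; exact two-sided permutation p = 0.543), and the lowest shares were those of m31 replicate 4 and control replicate 3. These are also the libraries with the highest macrophage sums, 11361 and 7904, and the part of those cells in the shares was not tested. The difference in mean share, -0.61 percentage points, was 0.56 without m31 replicate 4, -1.50 without control replicate 3 and -0.34 without both. In bulk muscle, fewer cells of a type and less RNA per cell cannot be told apart. Summed per kb, Rpl3 and Rpl3l together stood at 14133, of which Rpl3 was 1407, while the core median was 9082.

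**Figure D4:**
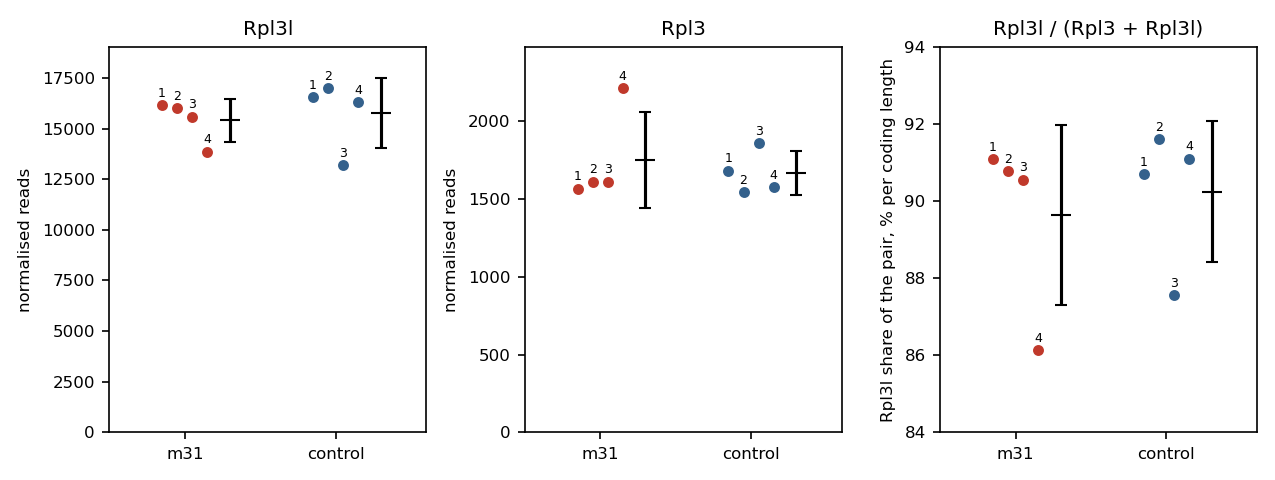
Rpl3l and Rpl3 in normalised reads, and the Rpl3l share of the pair per coding length in percent (this axis starts at 84), by library with replicate numbers, beside the mean and SD of each group (n = 4). Replicate 4 of m31 (86.1%) and replicate 3 of the controls (87.6%) have the lowest share.

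The other paralogues were scarcer. Rps27l, a paralogue of Rps27 that p53 induces, had 1216, 1165, 1142 and 1138 with m31 and 1336, 1198, 1290 and 1662 with the control guide. Only control replicate 2 fell within the m31 range, and the difference was -0.22 ± 0.10 (SE; limma's adjusted p = 0.733). Rpl7l1, which serves in ribosome assembly, had 891 ± 88.1 against 909 ± 92.1 (SD, n = 4 each), a difference of -0.03, which turned to 0.01 per nuclear reads. Rpl22l1, the paralogue of Rpl22, had 284 ± 24.1 against 324 ± 66.8 (difference -0.17), and Rps4l 119 ± 2.58 against 140 ± 37.8 (difference -0.20). All 5 paralogue estimates were below 0 on the deposited scaling, and 0 passed the test. The sign of Rpl3l turned under quantile normalisation and per nuclear reads. That of Rpl7l1 turned per nuclear reads, under library weights and with m31 replicate 4 and control replicate 3 both left out. With 1 library left out at a time, Rpl3l reached 0.021 and Rpl7l1 reached 0.029. Among the copies, Rpl37rt had 201 ± 18.03 against 185 ± 52.2 (difference 0.16) and Rps27rt 64.9 ± 6.15 against 72.4 ± 13.6 (difference -0.14).

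Rack1, Rpsa and Fau encode ribosomal proteins with symbols that the rule does not take, and none of the 3 passed the test. Rack1, the scaffold on the small subunit head, had 7576, 8464, 7553 and 7151 with m31 and 8624, 8187, 8070 and 9094 with the control guide, a difference of -0.15 ± 0.08 (SE; limma's adjusted p = 0.781). One m31 library, replicate 2, lay within the range of the controls. Rpsa, the laminin-receptor protein of the small subunit, had 10040 ± 397 against 10164 ± 701 (SD, n = 4 each; difference -0.02), and Fau, which encodes a ubiquitin-like fusion, 2896 ± 118 against 3090 ± 471 (difference -0.08).

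The members' summed level varied within each group. Reads in members made up 1.11, 1.22, 1.11 and 1.16% of all gene reads in the m31 libraries and 1.27, 1.17, 1.15 and 1.17% in the controls, or 1.15 ± 0.05 and 1.19 ± 0.06% (SD, n = 4 each). The mean centred log2 value of the 75 core genes was -0.04, 0.01, -0.09 and -0.04 with m31 and 0.17, 0.06, -0.15 and 0.08 with the control guide. Control replicate 1 was the highest library for 56 of the 87 members and control replicate 4 for 21, whereas control replicate 3 was the lowest for 46 and m31 replicate 3 for 19. On this mean, every m31 library lay between the extremes of the controls.

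**Figure D5:**
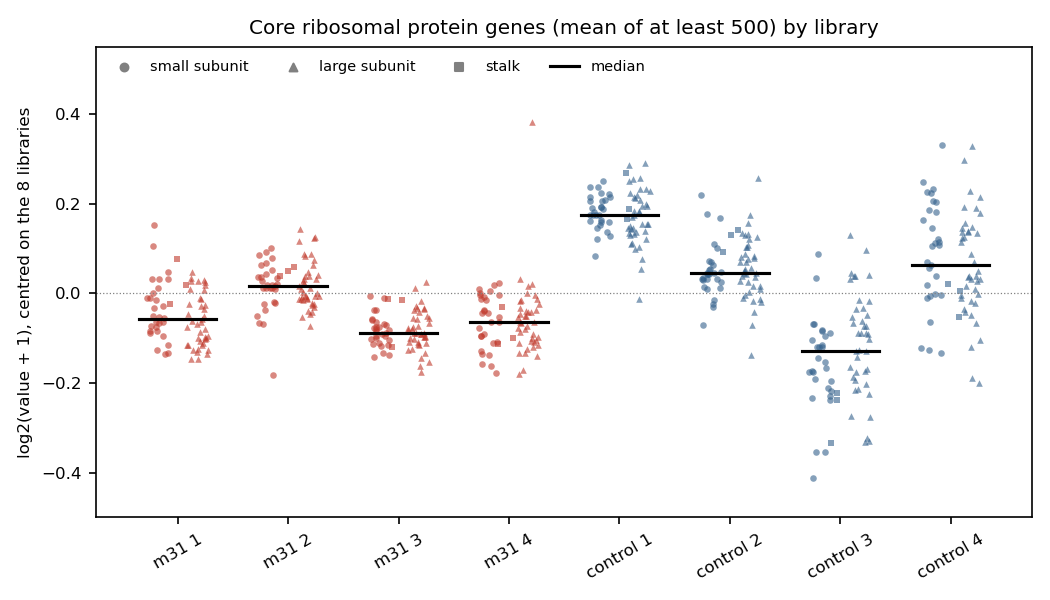
Log2(value + 1) of the core genes with a mean of at least 500 (73 genes), each centred on its mean over the 8 libraries, by library, with the median as a bar and the subunit as the symbol. Control replicate 1 is the highest library and control replicate 3 the lowest, and the m31 libraries lie between them.

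The counts given above depended on single libraries. Without control replicate 3, 35 members had separate groups, all lower with m31, beside 12.2% of all genes, and 28 had an unadjusted p under 0.05, beside 11.9% of all genes in either direction and 5.58% lower. Without control replicate 1 the median difference of the members was -0.04, with 63 estimates below 0. At an unadjusted p under 0.05 were 3 members, all lower with m31, beside 5.46% of all genes in either direction and 2.35% lower. Without m31 replicate 2, 15 members had separate groups, beside 5.83% of all genes. With m31 replicate 4 and control replicate 3 both left out, 38 members had separate groups, beside 17.1% of all genes, the median was -0.15 and 0 members passed the adjusted threshold. When reads were scaled to nuclear genes alone, 0 members had separate groups, and the median was -0.05 against 0.05 for all genes.

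Other mRNAs that carry a terminal oligopyrimidine tract encode elongation factors and RNA-binding proteins. Of the 19 tested 0 passed, 13 estimates were below 0 and the median was -0.08. Separate groups were found for 1 gene higher with m31 and 1 lower, beside 1.84% and 2.02% of all genes. Pabpc1, the poly(A)-binding protein, had 4362, 5200, 4484 and 4800 with m31 and 4035, 4212, 3917 and 4308 with the control guide, a difference of 0.19 ± 0.08 (SE; limma's adjusted p = 0.720), with all m31 libraries above all controls. Naca, a chaperone of nascent chains that also has a muscle isoform, had a difference of 0.27, while the elongation factor subunit Eef1b2 and the nucleolar protein Npm1 had differences of -0.19 and -0.21.

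Translation initiation and elongation factors gave 0 of 31 past the threshold, with 21 estimates below 0 and a median of -0.05. In this list too, 1 gene had separate groups higher with m31 and 1 lower, beside 1.84% and 2.02% of all genes. Eef1a2, the elongation factor form of mature muscle, had 59360, 66105, 64380 and 58536 with m31 and 57037, 54910, 48282 and 52732 with the control guide. Every m31 library was above every control, and the difference was 0.22 ± 0.09 (SE; limma's adjusted p = 0.720). Eef1a1, the form of other cells, had 9507, 11375, 10661 and 16813 against 11176, 10469, 11895 and 9025, with m31 replicate 4 the highest, a difference of 0.16 ± 0.16 (SE). The other m31 libraries lay within the range of the controls. The initiation factors Eif5b, Eif2s2 and Eif3j1 had differences of -0.24, -0.20 and -0.20.

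Ribosome production was described by 3 lists. Among assembly and rRNA processing genes 0 of 34 passed, 14 estimates were below 0 and the median was 0.02. The groups were separate for 1 gene, lower with m31, beside 2.02% of all genes. The pseudouridine synthase Dkc1 (584 ± 43.8 against 675 ± 66.6) and the assembly factor Nop16 (402 ± 14.2 against 457 ± 31.2) had differences of -0.21 and -0.18, and Bysl and the rRNA methyltransferase Nop2 had 0.17 and 0.15. Among RNA polymerase I subunits and factors 0 of 15 passed and 10 estimates were below 0, with a median of -0.03. Here too the groups were separate for 1 gene, lower with m31, beside the same 2.02%. The subunit gene Cd3eap had a difference of -0.17.

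Among regulators 0 of 23 passed, with 14 estimates below 0 and a median of -0.02. Sesn1, a sestrin that restrains mTOR, had 481, 385, 468 and 488 with m31 and 560, 531, 527 and 578 with the control guide. The groups did not overlap, and the difference was -0.27 ± 0.10 (SE; limma's adjusted p = 0.698). Myc, which drives ribosome production, had 143 ± 26.5 against 115 ± 16.4 (difference 0.30), and the mTOR complex subunit Mlst8 262 ± 27.5 against 227 ± 8.02 (difference 0.20). Mtor itself (1638 ± 295 against 1664 ± 182) and Larp1 (6476 ± 382 against 6571 ± 598) had differences of -0.03 and -0.02.

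Mitochondrial ribosomal proteins, which build the separate ribosome of that organelle, gave 0 of 81 past the threshold, with 56 estimates below 0 and a median of -0.04. Separate groups were found for 1 gene higher with m31 and 2 lower, beside 1.84% and 2.02% of all genes. Mrps18c had 92.1, 84.5, 77.4 and 84.1 with m31 and 119, 111, 93.3 and 136 with the control guide, separate groups with a difference of -0.43 ± 0.15 (SE; limma's adjusted p = 0.697). Mrps2 had 464, 505, 682 and 505 against 459, 457, 356 and 449, separate the other way by a gap of a few reads, with a difference of 0.32 ± 0.14 (SE).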

How the data were processed

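Total RNA of gastrocnemius muscle was made into libraries with the NEBNext Ultra kit, per the labels' protocols. The authors deposited size-factor-normalised read signal per gene; per the submitters' processing notes, STAR and DESeq2 (no versions) were used with build GRCh38.p12, although the identifiers are of mouse. No source used here gives the counter, annotation or strand setting. Of 11 value columns, 8 match the labels and 3 were not used. Values were whole multiples of 1 read (100% within 0.01), so reads were recovered for edgeR 4.0.16 (quasi-likelihood test) and DESeq2 1.42.0.

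The main test was limma 3.58.1 (R 4.3.3, intensity trend, intercept and group, 8 libraries) on log2(value + 1) for 15960 genes with a mean of at least 10, with Benjamini-Hochberg adjustment over all of them; differences are m31 minus control on that scale, which understates the change of low genes. The count tests on recovered reads were alternatives, since the deposited values are normalised. Single values were compared by exact permutation tests over 70 arrangements, whose smallest p is 0.0286. No replicates were alike within sampling noise (chi-square per degree of freedom 14.3 to 57.9). Exon overlap and coding lengths come from the GENCODE vM21 annotation of GRCm38. The members and the gene lists were chosen with earlier results of these data known. Named members were the fixed ones, the paralogues, the 6 smallest p in each direction, and those at the ends of level and spread; up to 4 genes per other list had the smallest p. Of the list genes, only part is printed, and some genes are not reported here.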

Additional observations from a re-analysis of the deposited data

Results flagged for a closer look

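Within-group extremes were looked for in 76 groups of 4 libraries, and 6 held a library far from the other 3; over all 87 members, 9 of 174 groups did. Chance gives about 1 in 20, and the count over all members is near that rate, so the values below are descriptions only. In the 6 groups the gap to the nearest library was 0.84 to 0.93 of the group's range. Rpl3 in m31 replicate 4 stood at 2209 normalised reads, with the other m31 libraries at 1565 to 1610, and the Rpl3l share of the pair was 86.1% in the same library, with the others at 90.6 to 91.1%. The share is computed from Rpl3, so these flags are not independent. Replicate 4 of m31 also had the highest summed macrophage and fibroblast markers, and their part in these values was not tested. Rpl27 stood at 3414 in m31 replicate 2, with the others at 3034 to 3079. Rpl41 stood at 2900 in m31 replicate 3, with the others at 3145 to 3174. Rps4l stood at 123 in m31 replicate 1, with the others at 117 to 118, a small difference in a tight group. In the controls, members took 1.27% of reads in replicate 1, with the other controls between 1.146 and 1.166%.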

How the results depend on the processing

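Under 20 other settings 0 members passed the adjusted threshold, DESeq2 included, which called 38 genes in all and gave no adjusted p for 1 member. The members' median stayed below 0 under all of them. Of the 639 values of named members under other settings, 584 kept their direction.

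Counts moved as follows, and the cause was not tested. Members with separate groups were 8 as reported (3.85% of all genes), 5 under quantile normalisation (3.87%), 38 with m31 replicate 4 and control replicate 3 both left out (17.1%), and 0 per nuclear reads (3.70%); the last 2 settings were added after seeing the data. Members at an unadjusted p under 0.05 were 5 as reported (6.79% of all genes), 11 with recentring on library medians (6.90%), 23 with library weights (13.8%), 11 with DESeq2 (7.08%), 14 with both libraries left out (10.9%) and 1 per nuclear reads (6.72%). With the replicate number as a block they were 2 (5.43%). The members in these counts were all lower with m31, while the percentages are for either direction. For an unadjusted p under 0.05 and lower alone, they were 3.03% as reported, 4.19% with recentring, 6.11% with library weights and 3.18% with DESeq2. They were 4.74% with both libraries left out, 1.70% per nuclear reads and 2.32% with the block. The same-numbered libraries' deviations correlated at 0.05, -0.05, -0.13 and -0.18, no number matched its own partner best, and the libraries share only a number.

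Signs turned for small estimates and for Rpl37rt, the highest estimate of all members at 0.16. Under quantile normalisation these were Rpl3l (0.0067), Rplp1 (0.040), Rpl41 (0.011) and Rpl13a (-0.0027). Under library weights they were Rpl7l1 (0.041), Rpl37rt (-0.0056), Rpl37 (-0.047), Rps20 (-0.078), Rpl14 (-0.0053), Rps28 (-0.085), Rps10 (-0.16), Rpl13a (-0.12) and Rps19bp1 (0.0070). With both libraries left out they were Rpl3 (-0.0025), Rpl7l1 (0.029), Rpl37 (-0.0099), Rps20 (-0.051), Rpl14 (-0.024), Rps28 (-0.061), Rps10 (-0.39) and Rpl13a (-0.18). Per nuclear reads they were Rpl3l (0.011), Rplp1 (0.028), Rplp2 (0.017), Rps6 (0.0046), Rps19 (0.017), Rpl7l1 (0.012) and Rpl41 (0.028).

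Leaving out 1 library at a time gave 2 to 28 members at an unadjusted p under 0.05 and 8 to 35 with separate groups, beside 4.82 to 11.9% and 5.83 to 12.2% of all genes in either direction. These members were all lower with m31, and at that p 2.12 to 5.58% of all genes were lower. The members' median ran from -0.15 to -0.04, the difference in the share of reads from -0.06 to -0.009 percentage points, and that in the Rpl3l share from -1.50 to 0.56 percentage points. The log2 differences ran from -0.10 to 0.14 for Rpl13a, -0.034 to 0.074 for Rpl14, -0.056 to 0.12 for Rpl3, -0.027 to 0.15 for Rpl37, -0.025 to 0.29 for Rpl37rt, -0.11 to 0.021 for Rpl3l, -0.081 to 0.071 for Rpl41, -0.087 to 0.029 for Rpl7l1, -0.13 to 0.075 for Rplp1, -0.11 to 0.036 for Rplp2, -0.18 to 0.28 for Rps10, -0.092 to 0.037 for Rps19, -0.060 to 0.16 for Rps20 and -0.070 to 0.12 for Rps28.

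With 4 libraries per group, limma's 95% intervals lay within 1.5-fold for 84 of 87 members and within 1.25-fold for 58. Each interval is for a single gene, is not adjusted for the number of members, and covers only the spread among libraries. Rps10 had the widest interval of the members, on a mean of 13.5 normalised reads, beside the shared exons and copy rows given above.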
